A study of Mus musculus with 27 samples.

Results

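Mouse thyroid gland organoids (mTGOs) that had received 7 Gy of photon irradiation were compared at day 11 of culture with non-irradiated mTGOs of the same day. The comparison covers 6 of the 27 libraries in the series, 3 with 7 Gy and 3 with 0 Gy, chosen by the day and dose in the column names. The organoids came from thyroid glands of female C57BL/6 mice aged 8 to 12 weeks, and the labels name no transgene. All groups were grown in Matrigel with EGF, FGF2, the kinase inhibitor Y27632 and B27. Photons were given on day 5, and the libraries show the state on day 11. The 0 Gy group differed from the 7 Gy group by the irradiation alone as far as the labels say. The 3 libraries of each group carry the culture identifiers mTG11, mTG12 and mTG14. The labels number the mice 1 to 3, the design text counts 4 mice, and the identifiers could not be tied to those numbers. Each library is therefore 1 culture. The main fit takes out the level of each culture as a block. Its p-values therefore measure the spread left after that, estimated over the day 11 libraries of all doses. The spread between cultures stays in the fit without the block, which is given beside it.

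Ionizing radiation breaks DNA, and cells with breaks activate p53, which turns on genes of cell cycle arrest and death. Breaks and missegregated chromosomes can also place DNA or RNA where nucleic acid sensors find it. These sensors induce type I and type III interferons, which signal through the JAK kinases to STAT factors and IRF9 and switch on interferon-stimulated genes. In surviving epithelium, changes in division and in the balance of basal, squamous, secretory and ciliated cells can follow. RNA was measured with Smart3SEQ, which primes at the poly(A) tail and counts the 3′ ends of transcripts, and levels are given as CPM, counts scaled to a library total of 1000000.

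The 0 Gy libraries held 3636887 to 4200268 counts and the 7 Gy libraries 3661836 to 5723150, and the limit taken as detectable, 3 counts, stood for 0.524 to 0.825 CPM (counting error only). Of 19901 genes tested with edgeR's quasi-likelihood test and the culture as a block, 1296 passed an adjusted p of 0.05, or 6.51%. A total of 717 were higher (3.6%) and 579 lower (2.91%) with 7 Gy. Without the culture block 302 passed (1.52%), with 210 higher (1.06%) and 92 lower (0.462%), and all 302 were among the 1296. The libraries of the 2 groups did not overlap for 2475 genes on the higher side (12.4%) and 1669 on the lower side (8.39%), whether called or not. The median log2 fold change of all genes was 0.01. Each single library mattered to the count. It was 675, 732 and 862 without the 0 Gy library of mTG11, mTG12 and mTG14, and 711, 751 and 829 without the 7 Gy library of the same cultures. Genes were grouped into 44 lists, which held 367 of the called genes.

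Few thyroid genes were read in these cultures. Of 21 thyroid function genes 12 were tested. Cdh16, Iyd and Tff3 had no counts in the 6 libraries, and Slc5a5 (the iodide transporter) and Tshr (the TSH receptor) stayed at or below 0.273 CPM in each. The thyroid transcription factor Nkx2-1 was read at 17.9, 17.2 and 21.2 CPM at 0 Gy (mTG11, mTG12 and mTG14, the order used throughout) and at 15.9, 13.1 and 13.4 CPM at 7 Gy. Its log2 fold change of -0.43 did not pass the test (adjusted p = 0.183, edgeR). Foxe1, another thyroid transcription factor, was read at 21.5 to 35.2 CPM in all 6 libraries. Pax8 reached at most 1.38 CPM, and thyroglobulin lay between 0.238 and 6.17 CPM. Keratins of stratified epithelium were read in every library, with Krt5 at 2182 to 3467 CPM and Krt13 at 2094 to 3493 CPM.

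Markers of other cells were measured beside these genes. The tested members of a list of 32 fibroblast and stromal matrix genes summed to 268, 394 and 459 CPM at 0 Gy and to 437, 565 and 775 CPM at 7 Gy. The 7 Gy library was higher in each culture, while the groups overlapped. A total of 6 members rose, none fell, and the median log2 fold change was 1.20. That median includes members near the limit of 3 counts, such as Col6a1 (means of 0.179 and 1.19 CPM, log2 fold change 2.63). The more abundant Sparc, at 131 to 175 CPM at 0 Gy and 201 to 230 CPM at 7 Gy, had 0.55. S100a4, a calcium-binding protein also made by epithelium, had 12.4, 14.2 and 12.4 CPM at 0 Gy and 42.1, 32.9 and 32.0 CPM at 7 Gy, and it was the only one of the 6 called without the block. The collagen genes Col1a1 and Col1a2 also rose, to at most 22.7 CPM, and 2 members were called when the 0 Gy library of mTG14 was left out. The 4 tested skeletal muscle genes all rose, from a sum of 5.00, 12.5 and 12.4 CPM to 22.1, 52.9 and 37.3 CPM, and none of them was called without the block. Most defining markers of other lineages were at or near 0. Ptprc and Cd3e of leukocytes, Cdh5 and Cldn5 of endothelium, Chga of C cells, Pth of the parathyroid and Adipoq of fat stayed at or below 0.55 CPM. The tested members of the immune cell list were the exception, with sums of 84.9, 46.1 and 56.8 CPM at 0 Gy and 72.0, 46.8 and 67.2 CPM at 7 Gy. These sums came mostly from Cd68, a lysosomal protein of macrophages, at 34.9 to 59.0 CPM, and Itgam, a myeloid integrin, at 10.2 to 27.0 CPM. Itgam was higher at 7 Gy in each culture, and neither gene passed the test. When the fibroblast score was added to the fit as a covariate, 210 genes were called, 147 of them among the 1296. Because the fibroblast genes were higher at 7 Gy in each culture, the covariate partly overlaps the dose. That fit cannot fully separate the 2, so its counts do not show how much of a change belongs to either. The part of these cells in the results was not tested, and the number of members called with that covariate is given with most groups.

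Promoters of the groups that moved together were read from RefSeq (build GRCm38.p6, which differs from the GRCm39 of the alignment) over 300 bases, 250 before and 50 after the start of transcription, and searched on both strands. The interferon-stimulated response element was written as GAAANNGAA. It was found in 30 of the 58 promoters of interferon-stimulated members (51.7%), and in 8.56% of all 32851 promoters. Among promoters of the MHC class I list, to which B2m belongs, 5 of 24 held it (20.8%). The cell cycle element CHR, written as TTTGAA or TTCGAA, was in 32 of 40 mitosis promoters (80%) and 19.2% of all promoters. The E2F element TTTGGCGC was in 7 of 50 replication promoters (14%) and 0.514% of all promoters, and the ATF4 site TGATGNAAT in 6 of 41 ATF4 promoters (14.6%) and 0.965% of all. ISRE and CHR matches overlapped in 60 of the 689 promoters that held both. A match is a string of letters and no measured binding. The windows printed here were chosen to show each element upstream of a gene of its group, with the match in capitals, 5′ to 3′ on the strand of the gene. Overlapping matches are joined, and a match on the other strand appears reversed, as in the TTTC strings of Apol9b and Gbp3.
Isg15 (chr4:156200863-156200921, minus strand): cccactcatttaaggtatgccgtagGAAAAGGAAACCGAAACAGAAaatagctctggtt
Apol9b (chr15:77729011-77729069, plus strand): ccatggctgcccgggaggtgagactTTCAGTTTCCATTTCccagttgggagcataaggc
Gbp3 (chr3:142559975-142560033, plus strand): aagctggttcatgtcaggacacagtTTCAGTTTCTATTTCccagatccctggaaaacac
B2m (chr2:122147523-122147581, plus strand): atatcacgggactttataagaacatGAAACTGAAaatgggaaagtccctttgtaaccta
Mki67 (chr7:135716465-135716520, minus strand): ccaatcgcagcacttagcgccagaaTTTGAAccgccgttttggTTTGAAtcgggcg
Ccnb2 (chr9:70421691-70421746, minus strand): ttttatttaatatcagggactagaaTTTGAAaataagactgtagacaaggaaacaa
Mcm5 (chr8:75109335-75109392, plus strand): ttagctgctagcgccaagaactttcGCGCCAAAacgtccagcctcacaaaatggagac
Mcm6 (chr1:128359783-128359840, minus strand): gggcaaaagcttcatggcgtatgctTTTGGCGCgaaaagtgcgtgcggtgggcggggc
Pycr1 (chr11:120643818-120643876, minus strand): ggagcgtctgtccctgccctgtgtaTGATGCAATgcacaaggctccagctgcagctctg
Aars (chr8:111033704-111033762, plus strand): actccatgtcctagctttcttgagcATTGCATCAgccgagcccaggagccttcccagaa
The printed matches began 78 bases before the start of transcription in Isg15, 36 in Apol9b, 139 in B2m and 116 in Mki67. The 59-base window of Apol9a is identical to that of Apol9b. Among called genes with a promoter, 26 of 41 interferon-stimulated, 26 of 32 mitosis, 4 of 18 replication and 4 of 17 ATF4 members held their element. Of all 27025 genes with a promoter, 9.76% held the ISRE, 21.7% the CHR, 0.585% the E2F element and 1.08% the ATF4 site. Of the called MHC class I members 3 of 11 held the ISRE.

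Interferon-stimulated genes were higher in the irradiated organoids. Of the 59 genes of this list, all tested, 52 rose and none fell, with a median log2 fold change of 1.57, while the libraries of 51 did not overlap. As shown with the promoter windows, many of these genes carry the ISRE near their start. Ifi27l2a, a small mitochondrial protein induced by interferon, showed the largest rise of any gene with a mean of at least 10 CPM. It had 59.3, 6.44 and 28.9 CPM at 0 Gy and 884, 499 and 631 CPM at 7 Gy, a log2 fold change of 4.66 (SE 0.31, adjusted p = 4.4e-07). All 3 irradiated libraries stood above all 3 controls by a wide margin, and the ratio of 7 to 0 Gy was highest in mTG12, which had the lowest control.

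Several transducers and sensors of the interferon signal were part of the rise, though not the JAK kinases. Stat2, a transcription factor that the activated receptors recruit, had 15, 7.51 and 11.6 CPM at 0 Gy and 39.2, 33.2 and 31.4 CPM at 7 Gy (log2 fold change 1.59, SE 0.18). Irf9, the DNA-binding subunit of the complex, rose by 1.09 on the log2 scale. Irf7, which amplifies interferon transcription, rose by 1.33. The cytosolic RNA sensors Ddx58 (RIG-I), Ifih1 (MDA5) and Dhx58 rose by 1.14, 0.79 and 1.79, and the Z-nucleic acid sensor Zbp1 by 1.58. The 3 libraries of each group were separate for all 7 of these genes.

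The antiviral effectors rose further. Isg15, a ubiquitin-like protein conjugated to targets during the interferon response, had 83.0, 17.3 and 47.3 CPM at 0 Gy and 297, 159 and 235 CPM at 7 Gy (log2 fold change 2.33, SE 0.19). Usp18, which removes Isg15 and restrains the receptor, rose by 1.57. Oas2, which makes the activator of RNase L, had 10.0, 2.15 and 3.85 CPM at 0 Gy and 57.3, 33.1 and 38 CPM at 7 Gy (3.06, SE 0.27). Rsad2 (viperin) went from 6.43, 1.61 and 2.75 CPM to 34.1, 13.2 and 25.3 CPM (2.70, SE 0.29). Bst2 (tetherin) rose by 2.10, Trim30a by 3.39, and the near-identical apolipoprotein L genes Apol9a and Apol9b by 3.48 and 3.64. In all of these genes culture mTG11 was the highest of the irradiated libraries and mTG12 the lowest, and among the controls mTG11 was again the highest. The called genes whose groups overlapped were Ifit1, Oasl1 and Mx1, for each of which the mTG11 control lay above the mTG12 irradiated library. The 7 genes that did not pass were Tor3a, Isg20, Eif2ak2, Uba7, Parp12, Trex1 and Mx2, with log2 fold changes of 0.03 to 1.06.

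The cultures differed in their control level, and the count depended on the block. The list summed to 1961, 936 and 1386 CPM at 0 Gy and to 5356, 3037 and 3973 CPM at 7 Gy with mTG11 the highest and mTG12 the lowest at both doses. Without the block 20 members were called, with the fibroblast covariate 26, and without single libraries or cultures 42 to 52.

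Ligands, receptors and further sensors and regulators of this pathway formed a separate list. Of its 28 genes 22 were tested, none passed the test on the higher side and 2 fell, neither of them with the fibroblast covariate. Ifnb1, Ifng, Ifnk, Ifnl2 and Ifnl3, which encode interferons, had no counts in any of the 6 libraries, which allows up to 0.524 to 0.825 CPM in a library. The receptor subunits Ifnar1 and Ifnar2 had log2 fold changes of -0.20 and -0.29, and the adaptor gene Sting1 had -0.32, none past the test. The kinase genes Jak1, Jak2 and Tyk2 had -0.07, -0.09 and -0.26 and did not pass either. Cgas, the DNA sensor upstream of Sting1, had 8.81, 6.79 and 7.42 CPM at 0 Gy and 13.0, 9.36 and 11.6 CPM at 7 Gy (log2 fold change 0.51, adjusted p = 0.157 with edgeR). The RNA sensor gene Tlr3 had 0.48 (adjusted p = 0.056, edgeR) and Nlrc5, a transactivator of MHC class I genes, 0.83 (adjusted p = 0.072, edgeR). All 3 were higher in each culture with the groups separate. Socs3, a feedback inhibitor of JAK signalling, fell by 1.52 on the log2 scale, from 6.90, 15.3 and 12.1 CPM to 2.45, 5.58 and 4.37 CPM. Irf8 fell from 2.15 to 4.52 CPM in the controls to 0.175 to 0.819 CPM, and had a log2 fold change of 0.068 with that covariate.

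Many genes of antigen presentation by MHC class I rose with the interferon-stimulated genes. MHC class I molecules show peptides to CD8 T cells on the cell surface, and 15 of the 29 genes of this list rose, none fell, with a median log2 fold change of 1.13. B2m, the invariant light chain, had 304, 180 and 220 CPM at 0 Gy and 1595, 792 and 1045 CPM at 7 Gy (2.22, SE 0.12, adjusted p = 1.9e-07). All 3 irradiated libraries lay far above the controls. The heavy chain genes H2-K1 and H2-D1 rose by 1.63 and 1.22. H2-Q7 and H2-Q9 had near-identical counts, so that their rises of 3.46 and 3.46 cannot be told apart. The peptide transporter Tap1 rose from 38.1, 29.0 and 29.4 CPM to 87.9, 69.8 and 71.8 CPM (1.22), Tap2 by 0.85, and the immunoproteasome subunits Psmb8 and Psmb9 by 1.13 and 1.52. The general chaperones of the endoplasmic reticulum in this list moved little, with log2 fold changes of 0.06 for Pdia3, 0.19 for Canx and 0.27 for Calr, none past the test. Without the block 8 were called, and 11 with the fibroblast covariate. Of 5 tested MHC class II genes H2-Eb1 alone rose, from 1.1 to 2.15 CPM in the controls to 10.1 to 13.1 CPM.

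Chemokines and NF-kappa-B feedback genes changed in smaller number. Of 37 tested members 8 rose and 1 fell, and the median log2 fold change was 0.40. Nfkbia, the inhibitor that NF-kappa-B itself induces, had 261, 248 and 193 CPM at 0 Gy and 414, 446 and 353 CPM at 7 Gy (0.76, SE 0.09). Tnfaip3 (A20), another such inhibitor, went from 17.6, 12.3 and 11.8 CPM to 36.8, 29.0 and 29.2 CPM (1.15). The neutrophil chemokines Cxcl1 and Cxcl2 rose by 0.66 and 1.17, Ccl2 by 1.95 and Ccl5 by 1.89. Cxcl10, an interferon-induced T cell chemokine, was at or below 0.55 CPM in the controls, under the limit of 3 counts, and had 3.50, 2.88 and 4.10 CPM at 7 Gy. Cxcl17 fell by 0.71 and had 0.65 with the fibroblast covariate. Groups were separate for Nfkbia, Tnfaip3, Cxcl1 and Cxcl2. With the fibroblast covariate no member rose, and 4 did without the block.

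**Figure D1:**
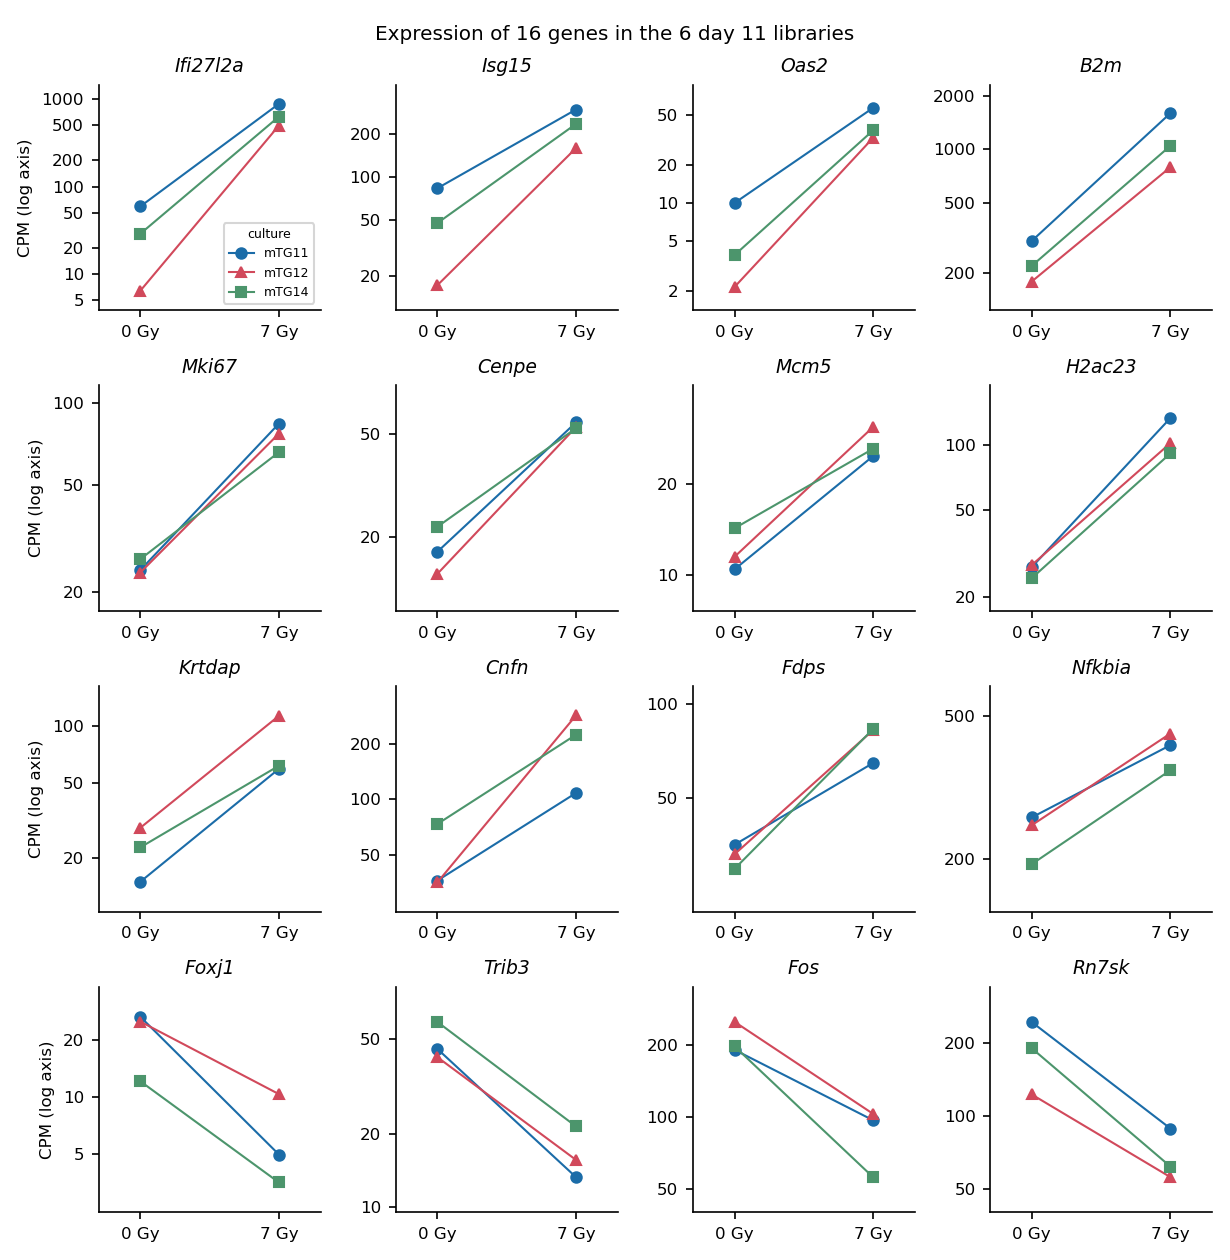
CPM (log axis) of 16 genes in the 6 day 11 libraries, 0 Gy on the left and 7 Gy on the right of each panel, with 1 point per library and a line joining the libraries of a culture (mTG11, mTG12, mTG14). All lines rise in the upper 3 rows and all fall in the lowest row, and the Isg15 line of mTG12, from 17.3 to 159 CPM, is steeper than that of mTG11, from 83.0 to 297 CPM.

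Genes of mitosis were higher in the irradiated organoids at this late day. These genes encode the cyclins, kinases, kinesins and kinetochore proteins that carry cells through G2 and division. Of 49 genes 40 rose and none fell, the median log2 fold change was 1.15, and the libraries of 46 did not overlap. Mki67, the antigen used to mark cycling cells, had 24.2, 23.7 and 26.5 CPM at 0 Gy and 83.9, 77.1 and 65.8 CPM at 7 Gy (1.57, SE 0.22, adjusted p = 0.00055). Birc5 (survivin), a subunit of the chromosomal passenger complex, had 11.4, 9.25 and 10.3 CPM and then 36.3, 37.6 and 29.4 CPM (1.70, SE 0.17). The kinetochore motor Cenpe had 17.6, 14.5 and 22 CPM and then 55.7, 53.4 and 52.8 CPM (1.54, SE 0.18). In these 3 genes the cultures lay close together within each dose and far apart between doses. The cyclins Ccnb1 and Ccna2 rose by 1.49 and 1.20, the kinase Cdk1 by 1.15, the transcription factor Foxm1 by 1.13 and Top2a, the topoisomerase that untangles chromosomes, by 0.88.

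Replication genes rose less. Of 52 genes of DNA replication and the G1/S transition 22 rose, none fell, and the median log2 fold change was 0.59. Mcm5, a subunit of the replicative helicase, had 10.5, 11.5 and 14.3 CPM at 0 Gy and 24.8, 31.0 and 26.2 CPM at 7 Gy (1.15, SE 0.17). All of the other helicase subunits among the called genes, Mcm2, Mcm3, Mcm4, Mcm6 and Mcm7, rose by 0.71 to 0.94. Rrm2, which supplies deoxynucleotides in S phase, rose by 1.49, Tk1 by 1.46, and Pcna, the polymerase clamp, by 0.43. Replication-dependent histone genes were also higher, with 16 of 35 tested members rising, none falling and a median of 1.68. H2ac23 had 27.4, 28.0 and 24.4 CPM at 0 Gy and 133, 102 and 91.5 CPM at 7 Gy (2.00, SE 0.18). H2ac11 and H2ac12 rose by 2.49 and 2.63. Histone messages of S phase largely lack a poly(A) tail, so a poly(A)-primed library reads only a part of them, and the H2ac genes are near-identical copies with fractional counts, so that values of single copies are uncertain.

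The number of calls in these groups depended on the fit. Without the block 27 mitosis, 14 replication and 15 histone genes were called, and with the fibroblast covariate 10, 2 and 4. The lowest counts came without mTG11, with 23, 8 and 8 genes when the culture was left out and 29, 12 and 11 without its 0 Gy library. More cells in cycle and more of these RNAs per cell cannot be told apart in bulk samples, here and for every group.

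Inhibitors of the cycle did not share a direction. Cdkn1a (p21), the p53-induced inhibitor, had 446, 468 and 412 CPM at 0 Gy and 447, 542 and 492 CPM at 7 Gy. Its change of 0.12 on the log2 scale did not pass edgeR's test (adjusted p = 0.584). Cdkn2b (p15) rose by 0.43, from 81.0, 73.2 and 82.2 CPM to 107, 114 and 106 CPM. Cdkn1b (p27) fell by 0.50, from 74.5, 66.8 and 80.3 CPM to 47.5, 50.0 and 64.2 CPM. The groups were separate for both. Cdkn2a had a log2 fold change of 0.36 and missed the test (adjusted p = 0.094, edgeR), with the highest level in mTG12 at both doses. Ccnd2, a D cyclin, rose by 0.29, and Ccnd1 had 0.08. None of the 16 genes of this list was called without the block or with the fibroblast covariate.

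Of the 32 p53 target genes 6 rose and 1 fell, and the median log2 fold change was 0.26. Ddit4l rose the most, from 6.73, 10.2 and 9.62 CPM to 13.3, 20.5 and 20.5 CPM (0.98, SE 0.20). Pmaip1 (Noxa), a death activator, went from 117, 114 and 101 CPM to 158, 173 and 148 CPM (0.49), and Bax, which opens the mitochondrial membrane, rose by 0.48. Zmat3, Perp and Ei24 rose by 0.47, 0.38 and 0.36, and Sesn2 fell by 0.56. Mdm2, the ligase that degrades p53, had 68.0, 62.8 and 56.7 CPM and then 82.8, 82.6 and 74.1 CPM, with the groups separate and the test not passed (0.32, adjusted p = 0.176, edgeR). Without the block only Pmaip1 was called, and with the fibroblast covariate none. Without the 0 Gy library of mTG12 the count of higher members was 3, and without the culture mTG11 it was 2. Of 50 DNA damage and repair genes 5 rose and none fell. They included Clspn (1.46) and Timeless (1.19), which protect replication forks, and the deubiquitinase gene Usp1 (0.50). Among 21 apoptosis regulators Bak1 rose by 0.48 and Bmf fell by 1.06. These shares were near those of all genes tested, 3.6% higher and 2.91% lower. With the fibroblast covariate 1 repair gene and no apoptosis gene was called.

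**Figure D2:**
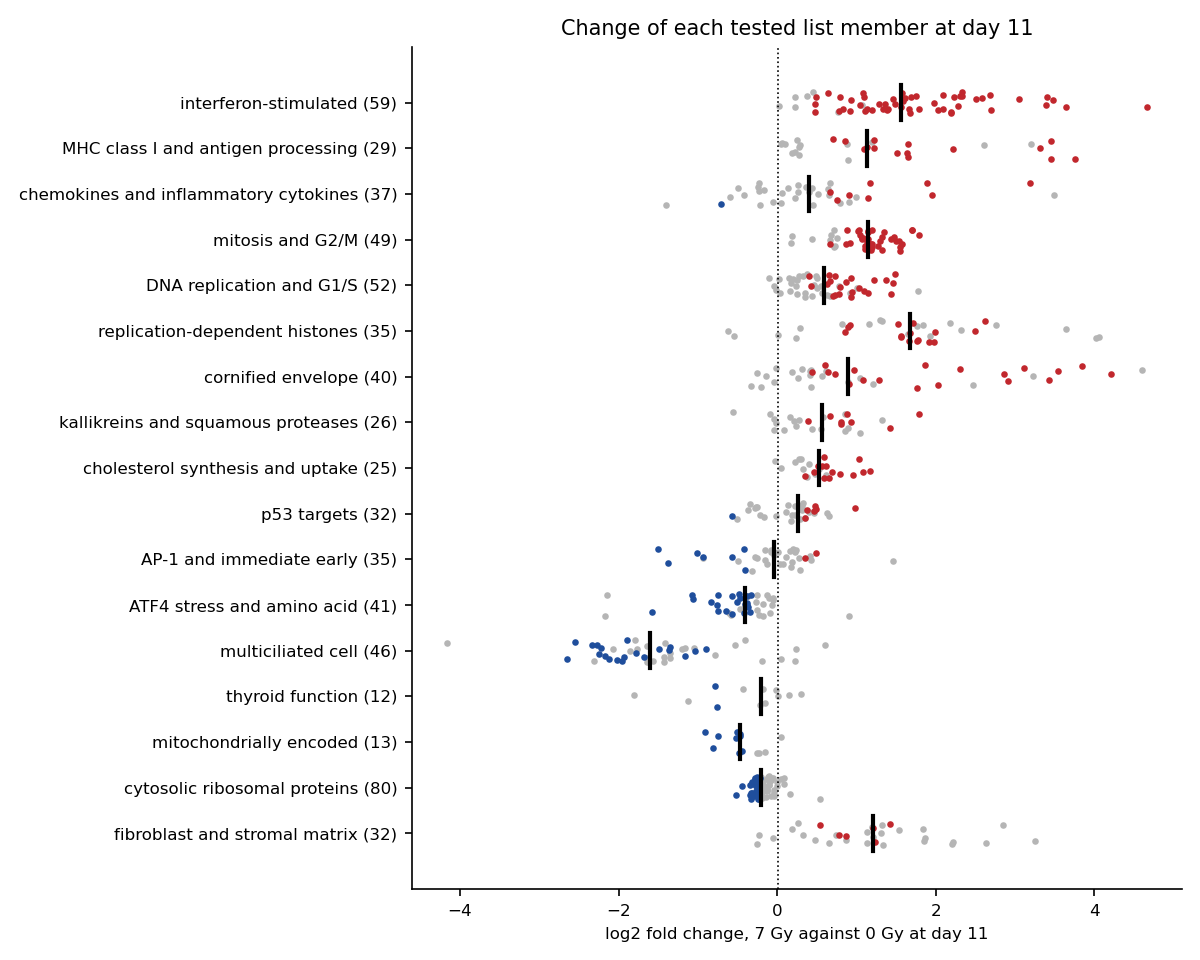
Log2 fold change of 7 Gy against 0 Gy at day 11 (horizontal axis) for every tested member of 17 lists (number tested in brackets), with red points for genes called higher, blue for genes called lower, grey for genes not called, a bar at the list's median and a dotted line at the median of all genes (0.01). Interferon-stimulated genes center on 1.57 and mitosis genes on 1.15, while the 20 called multiciliated genes all lie below 0.

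Genes of squamous differentiation were among the higher genes. The cornified envelope is the protein shell of terminally differentiated squamous cells. Of 40 tested members 19 rose, none fell, and the median log2 fold change was 0.90. Cnfn (cornifelin) had 36.2, 35.4 and 73.4 CPM at 0 Gy and 108, 286 and 224 CPM at 7 Gy (2.03, SE 0.27). Krtdap had 15, 29.0 and 22.8 CPM and then 59.4, 113 and 61.7 CPM (1.76, SE 0.22). Sprr3, a small proline-rich cross-linking partner, had 18.1, 39.1 and 49.8 CPM and then 62.6, 247 and 124 CPM (1.86, SE 0.27). The 7 Gy libraries of all 3 genes were above the controls, and mTG12 was the highest of them. The late envelope genes Lce3e and Lce3f were under 3 counts in each control, and at 7 Gy reached 14.8 and 13.6 CPM in mTG12 against 1.09 to 3.28 CPM in the other cultures. The median change within a culture, on the scale of log2(CPM + 1), was 0.48 in mTG11, 1.11 in mTG12 and 0.56 in mTG14. With either library of mTG12 left out 8 members were called, and 10 without that culture. Without the block 6 were called, and with the fibroblast covariate 19.

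Other genes of stratified epithelium were measured as well. Krt16, a stress keratin, had 30.4, 104 and 50.0 CPM at 0 Gy and 66.8, 375 and 134 CPM at 7 Gy (1.49, SE 0.25), higher in each culture while the groups overlapped. Krt6b rose by 0.98 and Krt14, a basal keratin, by 0.41, and Krt5 had 0.26 (adjusted p = 0.074, edgeR). Of the simple and suprabasal keratins Krt19 alone rose, by 0.48. Of 14 desmosome genes 4 rose. The plaque protein Dsp (desmoplakin) had 206, 411 and 326 CPM at 0 Gy and 498, 687 and 590 CPM at 7 Gy (0.91, SE 0.12), and the cadherin Dsg3 rose by 0.55. Among 26 tested kallikreins, squamous proteases and protease inhibitors 8 rose and none fell, led by Klk10 (11.7, 20.1 and 21.5 CPM, then 33.2, 99.2 and 63.6 CPM, log2 fold change 1.79) and Klk13 (1.42). Spink5, the inhibitor that restrains these proteases, rose by 0.80. The antimicrobial peptide gene Defb14 had 5.95, 18.2 and 14.3 CPM and then 24.6, 130 and 51.2 CPM (2.30). Trp63, the master factor of stratified epithelium, had a log2 fold change of 0.32 and did not pass (adjusted p = 0.175, edgeR). None of the basal keratin and desmosome genes was called without the block. Of the list of proteases and inhibitors 2 were, Klk10 and the inhibitor gene Serpinb2, and the count of that list was 4 without the 0 Gy library of mTG11. With the fibroblast covariate 4 basal keratins, 2 desmosome genes and 6 genes of the list of proteases and inhibitors were called higher.

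Multiciliated cell genes were lower with 7 Gy. These genes encode the transcription factors and axonemal proteins of cells that carry motile cilia. Of 46 tested members 20 fell and none rose, with a median log2 fold change of -1.60. Foxj1, the factor that commits cells to motile cilia, had 26.4, 24.9 and 12.1 CPM at 0 Gy and 4.98, 10.4 and 3.55 CPM at 7 Gy (-1.77, SE 0.24, adjusted p = 0.00039). The groups were separate, with mTG14 the lowest at both doses. Ccno and Myb, which act in centriole amplification, fell by 2.28 and 2.12, Mcidas, an upstream regulator, by 2.55, and the axonemal genes Tppp3 and Dnah5 by 2.03 and 1.93. Ccno went from 12.4, 9.38 and 4.95 CPM to 1.92, 3.06 and 0.55 CPM. Of the members that other cells also express, Tubb4b, Trp73 and Rfx3 had log2 fold changes of 0.24, 0.23 and 0.05 and did not pass. The 45 members other than Tubb4b summed to 281, 295 and 152 CPM at 0 Gy and to 94.4, 137 and 75.9 CPM at 7 Gy. Without the block 4 were called, with the fibroblast covariate none, 9 without the 7 Gy library of mTG11 and 6 without that culture. Dnah5 had 0.089 with that covariate. The gene Sec14l3 showed the largest fall of any gene with a mean of at least 10 CPM, from 16.5, 23.1 and 11.2 CPM to 2.48, 5.69 and 3.81 CPM (-2.13, SE 0.40), and its direction turned with the fibroblast covariate (1.23).

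Some oxidase and secretory genes fell. The dual oxidase Duox2, which makes hydrogen peroxide for thyroid hormone synthesis and mucosal defence, had 82.5, 42.6 and 67.8 CPM at 0 Gy and 39.8, 31.9 and 40.7 CPM at 7 Gy (-0.78, SE 0.12). Its maturation factor Duoxa2 went from 154, 106 and 149 CPM to 83.7, 53.5 and 117 CPM (-0.76, SE 0.11). Both were lower in every culture, and neither was called without the block. Duox1 and Duoxa1 had 0.30 and 0.15 and did not pass. Of 29 secretory and mucosal defence genes 3 fell, namely Bpifb1 (-1.74), the immunoglobulin receptor Pigr (-0.60) and lactoferrin Ltf (-0.44). Bpifb1 had 94.3 CPM in the mTG14 control and 3.22 and 6.43 CPM in the other controls, so that its fall was within cultures and the groups overlapped. The epithelial fate factor Sox9 fell by 0.40, the Notch effectors Rbpj and Hes1 by 0.38 and 0.38, and the claudin Cldn10 by 1.52. None of the falls in this paragraph was called with the fibroblast covariate, with which Pigr and Ltf had log2 fold changes of 0.29 and 0.27.

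Many genes of a list of ATF4 stress and amino acid genes were lower. Their control by ATF4 in these cultures was not tested. ATF4 is the transcription factor of the integrated stress response, which turns on amino acid synthesis and transport and the charging of tRNAs. Of the 41 members 21 fell, none rose, and the median log2 fold change was -0.41. Trib3, a pseudokinase that feeds back on ATF4, had 45.2, 41.8 and 58.6 CPM at 0 Gy and 13.3, 15.7 and 21.6 CPM at 7 Gy (-1.57, SE 0.13, adjusted p = 3.4e-06). Pycr1, an enzyme of proline synthesis, went from 27.1, 23.9 and 31.7 CPM to 12.4, 14.2 and 13.1 CPM (-1.07, SE 0.15), and Mthfd2, of mitochondrial one-carbon metabolism, from 83.1, 60.6 and 82.8 CPM to 42.5, 33.5 and 33.6 CPM (-1.06, SE 0.13). All 3 were separate between the groups. Asns (asparagine synthetase) fell by 0.76, the transporters Slc7a5 and Slc6a9 by 0.75 and 0.75, and the tRNA synthetase genes Mars1, Wars, Nars, Gars, Sars and Aars by 0.33 to 0.58. Atf4 itself had -0.23 (adjusted p = 0.073, edgeR), and its targets Ddit3 (CHOP) and Chac1 fell by 0.46 and 0.84. The list summed to 4776, 3982 and 4690 CPM at 0 Gy and to 3760, 3159 and 3604 CPM at 7 Gy. Without the block Trib3, Pycr1 and Mthfd2 were called, and with the fibroblast covariate 1 member was. The count was 10 without the 7 Gy library of mTG14.

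Immediate early genes, which serum and growth factors induce within minutes, split within their list. Of 35 members 7 fell and 2 rose. Fos had 191, 249 and 197 CPM at 0 Gy and 96.8, 103 and 56 CPM at 7 Gy (-1.38, SE 0.14, adjusted p = 3.6e-05). Fosb went from 79.8, 63.8 and 64.3 CPM to 28.3, 28.1 and 18.3 CPM (-1.5, SE 0.17), and Egr1 from 188, 273 and 260 CPM to 103, 133 and 132 CPM (-1.01, SE 0.13). The groups were separate for the 3 genes. Ier2, Klf10, Zfp36 and Dusp1 fell by 0.57, 0.93, 0.41 and 0.40, whereas Klf6 and the EGF receptor ligand Areg rose by 0.49 and 0.36. Jun, the partner of Fos, had 0.01 and Junb -0.15, and neither passed. Without the block 5 fell (Fos, Fosb, Egr1, Klf10 and Ier2) and none rose, and with the fibroblast covariate 1 fell.

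Transcripts of the mitochondrial genome were lower. Of 13 such genes 9 fell and none rose, with a median log2 fold change of -0.47. COX1, a subunit of cytochrome oxidase, had 3499, 3835 and 3791 CPM at 0 Gy and 2603, 2772 and 3007 CPM at 7 Gy (-0.45, SE 0.07), and ND5, a subunit of complex I, went from 574, 534 and 749 CPM to 316, 292 and 411 CPM (-0.91, SE 0.13). The 13 genes summed to 15520 to 16190 CPM at 0 Gy and 11190 to 12810 CPM at 7 Gy, without overlap. Of the 80 nuclear respiratory chain genes 4 rose, none fell, and the median was 0.08. The share that rose was near the 3.6% of all genes tested. Without the block 7 mitochondrial genes were called and with the fibroblast covariate 1. Cytosolic ribosomal protein genes fell by a small amount, 31 of 80 tested with a median of -0.21 and none rising. Rps27 fell the most, by 0.52. Their number depended on the fit, with 1 called without the block, 1 with the fibroblast covariate, 8 without the 0 Gy library of mTG11 and 2 without the culture mTG14. Rn7sk, a nuclear RNA that holds the elongation factor P-TEFb, had 244, 123 and 190 CPM at 0 Gy and 88.7, 55.8 and 61.7 CPM at 7 Gy (-1.44, SE 0.12). It has no poly(A) tail, so its level in a poly(A)-primed library is uncertain. Malat1 fell by 0.73 while the groups overlapped. Within cultures Malat1 had -0.94, -0.11 and -0.90 on the scale of log2(CPM + 1).

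Cholesterol genes were higher. These genes of the mevalonate and sterol pathway are induced by SREBP2. Of 25 members 14 rose and none fell, with a median log2 fold change of 0.52. Fdps, which makes farnesyl diphosphate, had 35.7, 33.3 and 29.9 CPM at 0 Gy and 64.8, 82.4 and 83.1 CPM at 7 Gy (1.17, SE 0.16). Cyp51, a sterol demethylase, went from 64.3, 48.0 and 68.7 CPM to 123, 120 and 118 CPM (0.96, SE 0.15). Mvk rose by 1.08 and the sterol carrier Stard4 by 0.79. Sqle, an enzyme of sterol synthesis, and Insig1, a feedback gene, had 0.32 and 0.30 and did not pass. The list summed to 1020 to 1045 CPM at 0 Gy and to 1373 to 1617 CPM at 7 Gy. Of 23 tested fatty acid genes 4 rose, led by the desaturase Scd2 (0.72), and 1 fell. Of the cholesterol genes 7 were called without the block, 4 with the fibroblast covariate, 5 without the 0 Gy library of mTG11 and 4 without the culture mTG14. Among 46 glutathione and NRF2 genes 9 fell and 2 rose. Gsta3, a glutathione transferase, went from 271, 227 and 227 CPM to 171, 177 and 146 CPM (-0.59) and Prdx6 from 1230, 795 and 919 CPM to 739, 602 and 630 CPM (-0.59). Only 1 of the 9 was called without the block, and 2 were called without the 7 Gy library of mTG11. With the fibroblast covariate 1 fell and 2 rose, Prdx6 had 0.061, and 1 fatty acid gene rose. The angiogenic factor Vegfa fell by 0.96, from 171, 142 and 179 CPM to 106, 65.7 and 88.8 CPM. Of the 33 glycolysis and hypoxia genes 1 rose, a share near the 3.6% of all genes tested, and 4 did with the fibroblast covariate.

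The other doses at day 11 were set beside 7 Gy. They share the 0 Gy libraries with it, so the values are given side by side. Against 0 Gy, 238 genes passed with 4 Gy (1.2%), 172 higher (0.864%) and 66 lower (0.332%), and 72 with 2 Gy (0.362%), 56 higher (0.281%) and 16 lower (0.0804%). The median log2 fold changes with 2, 4 and 7 Gy were 0.85, 1.09 and 1.57 for interferon-stimulated genes, -0.02, 0.58 and 1.15 for mitosis genes, -0.21, 0.67 and 1.68 for histone genes and -0.17, 0.23 and 0.52 for cholesterol genes. They were -0.05, -0.23 and -0.41 for ATF4 genes, -0.26, -0.26 and -0.47 for mitochondrial transcripts and -1.41, -1.68 and -1.60 for multiciliated genes. Fibroblast genes had 1.5, 1.47 and 1.20. Of the interferon-stimulated genes 20, 38 and 52 rose with the 3 doses, of the mitosis genes 0, 5 and 40, and of the multiciliated genes 6, 14 and 20 fell.

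Tested directly, 7 Gy differed from 2 Gy in 739 genes (3.71%), 474 higher (2.38%) and 265 lower (1.33%). The higher genes included 37 of 49 mitosis, 31 of 59 interferon-stimulated, 20 of 40 cornified envelope, 17 of 25 cholesterol, 16 of 52 replication and 14 of 35 histone genes, and the lower genes included 17 of 41 ATF4 genes. No multiciliated gene and no mitochondrial transcript passed between 7 and 2 Gy. The 45 multiciliated members without Tubb4b summed to 124, 135 and 71.1 CPM at 2 Gy and 134, 91.1 and 73.4 CPM at 4 Gy, beside 94.4, 137 and 75.9 CPM at 7 Gy. Between 7 and 4 Gy 49 genes passed (0.246%), 34 higher (0.171%) and 15 lower (0.0754%). Among them Ifi27l2a was higher by 1.49, B2m by 0.70, H2ac12 by 1.43, Mcm5 by 0.85, Cdk1 by 0.90, Tnfaip3 by 0.96, Cxcl2 by 1.3 and Klk10 by 0.88 on the log2 scale. Trib3 had -1.04, Duoxa2 -0.86, Egr1 -0.79, Rn7sk -0.74 and Gsta3 -0.66. Mean levels of Tnfaip3 were 13.9, 13.2, 16.1 and 31.7 CPM at 0, 2, 4 and 7 Gy, highest at 7 Gy. Mean levels of B2m were 235, 483, 732 and 1144 CPM, a step at every dose. None of the 49 passed without the culture block.

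**Figure D3:**
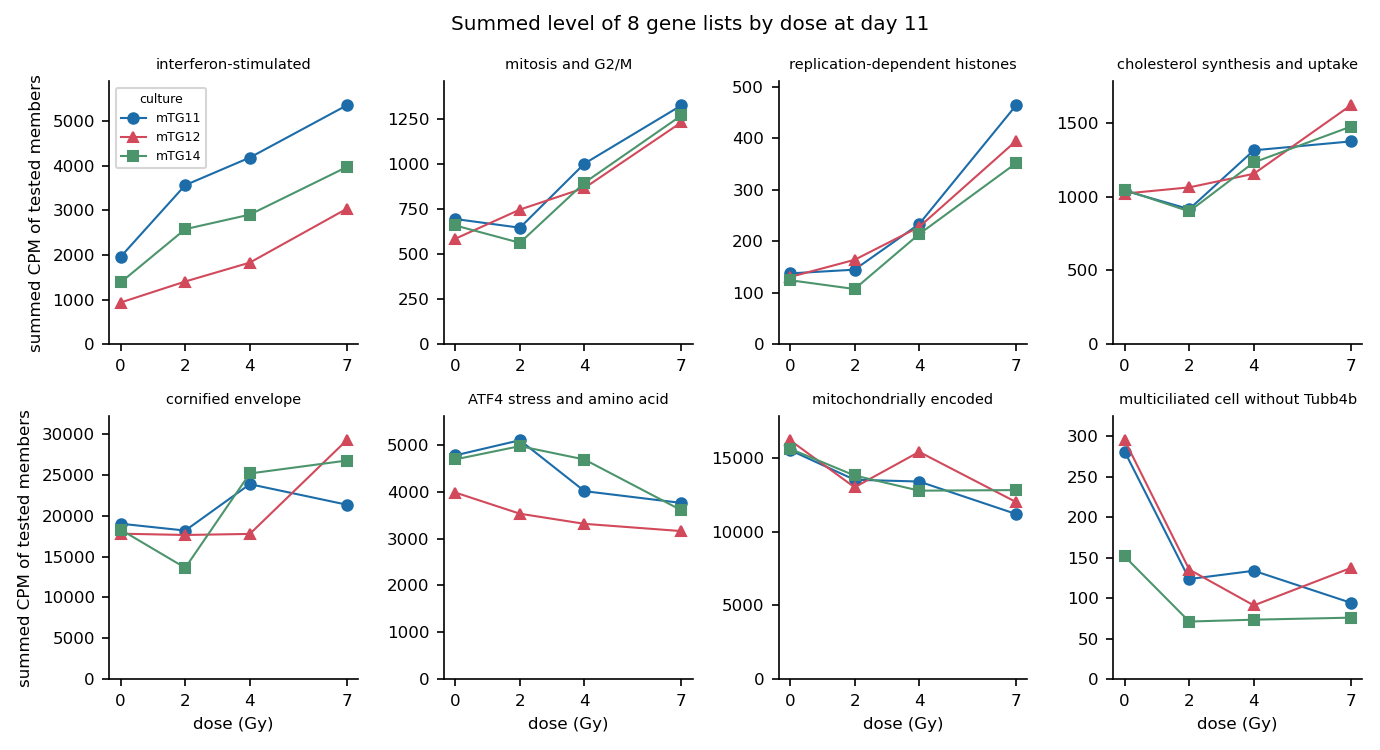
Summed CPM of the tested members of 8 lists at day 11 (vertical axis from 0) against dose in Gy (horizontal axis), with 1 line per culture. Interferon-stimulated genes climb at each dose in all 3 cultures, mitosis and histone sums are highest at 7 Gy in each culture and have no common direction at 2 Gy, and the multiciliated sum without Tubb4b is lower at 2 Gy in each culture with no common direction between 2 and 7 Gy.

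The late state was set against the early one at day 7, for which separate 0 Gy and 7 Gy libraries of the same cultures exist. At day 7, 2221 genes passed between 7 and 0 Gy (10.1% of 21928 tested), 1072 higher (4.89%) and 1149 lower (5.24%). The change with 7 Gy differed between the days, by a test of that difference in 1 fit of 24 libraries, in 1153 genes (5.26%). It was more positive at day 11 in 791 (3.61%) and more negative in 362 (1.65%). The difference reflects both doses, since the 0 Gy level also moved between the days.

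Mitosis genes turned from lower to higher. At day 7 none of the 49 rose and 39 fell (median log2 fold change -0.81), and in 48 the difference between the days passed. Mki67 had -1.46 at day 7 and 1.57 at day 11 (adjusted p of the difference 3.7e-07, edgeR). Replication genes went from a median of -0.38 to 0.59, with the difference passing in 25 of 52. Histone genes went from -0.54 to 1.68 with 13 of 35, and cholesterol genes from -0.62 to 0.52 with 21 of 25. Control levels moved as well. Fdps had mean levels of 208 CPM at 0 Gy and 121 CPM at 7 Gy on day 7, and of 32.9 and 76.8 CPM on day 11. H2ac12 had 40.9 and 24.7 CPM on day 7, and 4.04 and 25.7 CPM on day 11. Cornified envelope genes had a median of -0.32 at day 7, when 16 fell and 5 rose, and the difference passed in 22 of 40, all more positive at day 11. For the largest differences the mean of at least 10 CPM was taken over the 0 and 7 Gy libraries of both days. The most positive were in Asprv1, Lce3e, Lce3f, Rptn and Dsg1b, genes of late squamous differentiation. These genes met that mean through their day 7 levels, and their day 11 control means were 0.0917 to 0.719 CPM, near the limit of 3 counts or under it. Lce3f had mean levels of 92.2 CPM at 0 Gy and 35.4 CPM at 7 Gy on day 7, and of 0.28 and 6.04 CPM on day 11, so that the control level was much lower on the late day.

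Interferon-stimulated genes were higher at both days. At day 7, 56 of the 59 rose, 1 fell, and the median was 2.41 against 1.57 at day 11. The difference passed in 12, more negative at day 11 in 10, as for Ifi44 (3.67 and 1.69), Lgals3bp (3.02 and 1.46) and Oas3 (4.52 and 1.75). It was more positive in Ifi27l2a (2.22 and 4.66) and in Isg20. MHC class I genes had a median of 0.50 at day 7 and 1.13 at day 11, and the difference passed in 4 with a more positive change at day 11, among them B2m (1.26 and 2.22), H2-K1 (0.52 and 1.63) and H2-D1 (0.54 and 1.22).

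Fewer p53 targets were higher at the late day. At day 7, 22 of 32 rose with a median of 1.1, and the difference passed in 17, all more negative at day 11. Mdm2 had 1.72 at day 7 and 0.32 at day 11, Cdkn1a 1.29 and 0.12, Ccng1 1.76 and 0.31, and the death receptor gene Eda2r 2.99 and 0.65. Trib3 had 0.39 and -1.57 (adjusted p of the difference 1.5e-05, edgeR), and of the ATF4 genes the difference passed in 9, in both directions. Mitochondrial transcripts went from a median of 0.24, with 5 higher, to -0.47, and the difference passed in 8 of 13. Rn7sk had 1.48 at day 7 and -1.44 at day 11, with mean control levels of 35.5 and 186 CPM. Fos had -2.50 and -1.38, and the difference passed. Glycolysis and hypoxia genes, of which 26 of 33 fell at day 7, had a median of 0.03 at day 11, and the difference passed in 24. The multiciliated sum without Tubb4b was 51.3 to 62.1 CPM in the day 7 controls and 152 to 295 CPM in the day 11 controls, while the 7 Gy libraries had 44.2 to 70.8 CPM and 75.9 to 137 CPM. The difference between the days passed in 4 of its 46 genes.

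**Figure D4:**
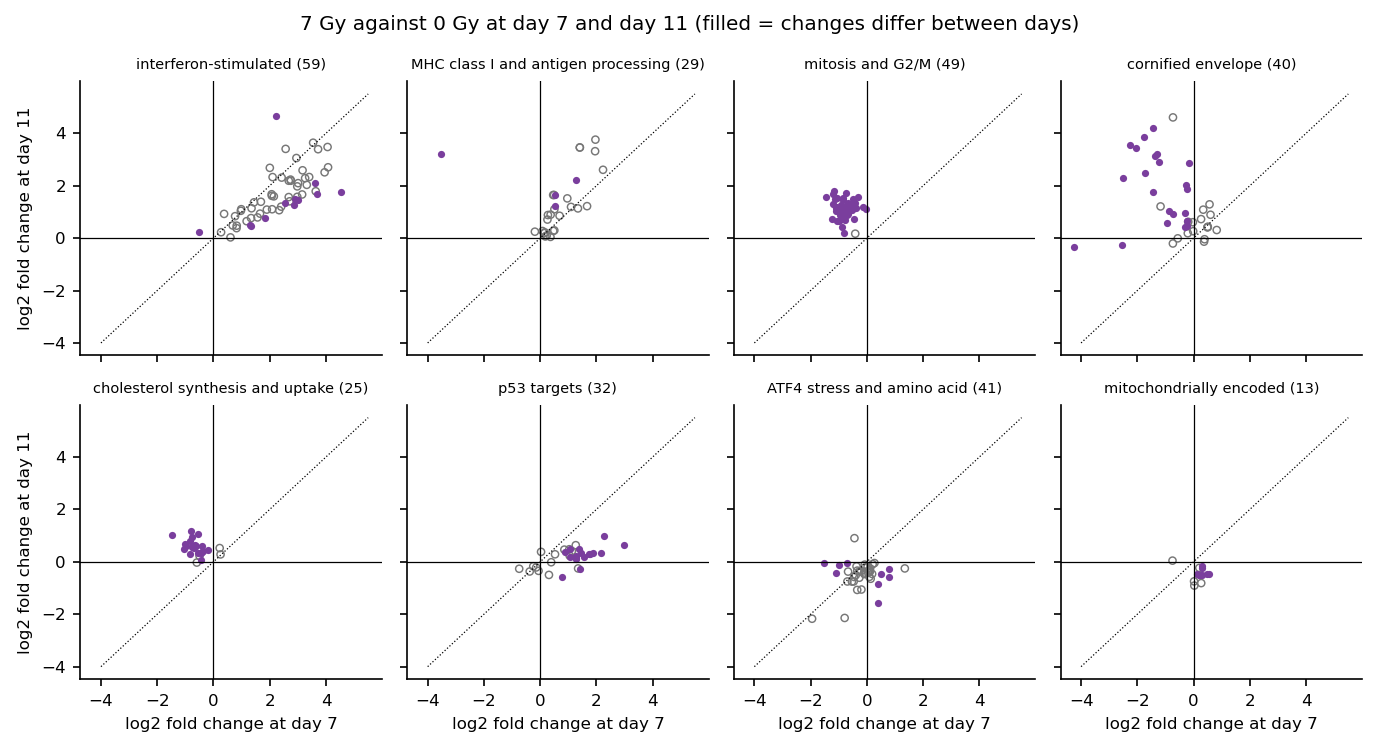
Log2 fold change of 7 Gy against 0 Gy at day 7 (horizontal axis) and day 11 (vertical axis) for the tested members of 8 lists, with filled points where the change differed between the days and a dotted line where both days are equal. Mitosis and cholesterol genes lie upper left (lower at day 7, higher at day 11), interferon-stimulated genes upper right, and most p53 targets right of the vertical line, with smaller changes at day 11 than at day 7.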

How the data were processed

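The authors sequenced Smart3SEQ libraries, and the submitters' processing notes name STAR, edgeR and GRCm39. The counting tool, annotation and use of molecular identifiers are not given in the sources used here. The deposited values are estimated counts per gene, not normalized, of which 56.3% of values above 0 are whole. Whole counts had been planned for, so values were rounded. Near-identical genes are uncertain. Columns were assigned by the day, dose and culture in their names.

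Genes with at least 10 counts over the 12 day 11 libraries were fitted in edgeR 4.0.16 (R 4.3.3) with TMM factors, the quasi-likelihood test, group and culture terms, and Benjamini-Hochberg adjustment at 0.05. The difference between days used 24 libraries. Culture was kept as a block because the identifiers are shared, and deviations from the group means correlated at 0.322 to 0.369 within cultures. DESeq2 1.42.0, other filters and scalings, a fibroblast covariate and left-out libraries were alternatives. In simulated data for this comparison (19901 genes), the fit with the block recovered 79.5% of 200 genes changed by a log2 of 1. Of its calls 9.14% were false, more than the adjusted p of 0.05 is set to allow. Without the block 52.5% were recovered and 0% of calls were false. Members and lists were chosen with earlier results of these data known. Up to 6 called members per direction with the largest change (mean of at least 5 CPM), members with a known role, the 15 largest rises and falls and the 5 largest day differences each way (10 CPM) could be named. Some items are not reported here.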

Additional observations from a re-analysis of the deposited data

Results flagged for a closer look

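The change with 7 Gy differed between day 11 and day 7 in 1153 of 21928 genes by edgeR's quasi-likelihood test of the difference itself, and this is the result that stood out for a closer look. The change was more positive at day 11 in 791 genes and more negative in 362.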

How the results depend on the processing

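Without the culture block 302 genes differed between 7 and 0 Gy at day 11 in place of 1296, with DESeq2 801 and with the fibroblast covariate 210, and leaving out single libraries or cultures gave 461 to 862. For the difference between days the count was 660 without the block in place of 1153, and 340 to 1080 with libraries or cultures left out. Between 7 and 4 Gy 0 genes passed edgeR's test without the block (1284 at an unadjusted p under 0.05), while DESeq2 with the block called 62. Between 7 and 2 Gy 122 passed without it and 476 with DESeq2 in place of 739. Of 376 named genes 136 kept their call without the block, 302 with DESeq2 and 89 with the fibroblast covariate. With that covariate 12 genes that had fallen had positive log2 fold changes, namely Sec14l3 (1.23), A2ml1 (0.0066), Irf8 (0.068), Cxcl17 (0.65), Cebpb (0.037), Herpud1 (0.028), Dnah5 (0.089), Ltf (0.27), Pigr (0.29), Gstm1 (0.18), Prdx6 (0.061) and Ero1a (0.29). The cause was not tested. No named gene changed sign when a library or culture was left out. At 3 counts, levels under 0.524 to 0.825 CPM were not detectable.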
